A study of Drosophila melanogaster with 2 samples.

Results

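The genes *sv*, *peb*, *sens*, *vvl* and *nvy* are 5 regulators of transcription that had some of the highest array ratios between sensory organ precursor cells (SOPs) and the epithelial cells around them in the *Drosophila* pupal notum. For each gene 1 feature of the array was taken, so 5 features were described out of the 15729 with a value on both arrays (15744 features in the table). Whether the array holds other features for these genes is not known here. The features were chosen by their measured ratios: a feature was taken for a gene when the arithmetic mean of its SOP/epithelial cell ratios on both arrays equalled the ratio that had been printed for the gene, within the rounding of the values. The ratios themselves are therefore described without a test, and they say nothing independent about whether these genes were high in SOPs.

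SOPs and epithelial cells were cut by laser from ethanol-fixed nota of pupae at 16 h after puparium formation (APF). All pupae carried *neur*-Gal4, which drives expression in SOPs and their progeny, and the membrane marker mCD8::GFP under UAS control. The SOP sample held around 1000 GFP-positive cells pooled from many nota, each cut with a margin around the cell. The epithelial sample held a like surface of tissue without visible GFP fluorescence, from pupae of the same genotype and age. The paper still detected *gfp* transcripts in the epithelial sample. RNA of both samples was amplified by 2 rounds of *in vitro* transcription and hybridised on 2 oligonucleotide arrays of 2 colours each. SOPs carried Cy3 on array 1 and Cy5 on array 2, and epithelial cells the other dye. A value is the log2 ratio of SOPs over epithelial cells, so 1 stands for a ratio of 2. In such samples more cells of a type and more RNA per cell cannot be told apart.

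Each bristle of the notum descends from a single SOP, which is singled out from a proneural cluster by the bHLH proteins Achaete and Scute and by Notch-mediated lateral inhibition, and which then divides asymmetrically to give the cells of the organ. The 5 genes encode proteins of several kinds. *senseless* (*sens*) encodes a zinc finger protein of the Gfi1 family that is switched on by proneural proteins and in turn sustains their expression in the SOP. *pebbled* (*peb*, also *hindsight*) encodes a large zinc finger protein that also acts in photoreceptor development. *shaven* (*sv*) encodes the Pax2 homologue, a paired domain protein required later in the lineage for the bristle shaft. *ventral veins lacking* (*vvl*, also *drifter*) encodes a POU domain protein that also acts in tracheal and wing vein development. *nervy* (*nvy*) encodes the homologue of the mammalian corepressor ETO/MTG8.

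The identity of the 5 features rested on the match alone, since the array annotation names 1 gene for only 67 features and none of these 5. For each of the 5 genes 1 feature of 15729 held the printed ratio, namely 9606 for *sv* (FBgn0005561), 7879 for *peb* (FBgn0003053), 12310 for *sens* (FBgn0002573), 4669 for *vvl* (FBgn0003995) and 5402 for *nvy* (FBgn0005636). The margin differed among them. On the log2 scale the arithmetic mean of the *sens* feature lay 2.5e-05 from its target and the next feature 0.048 away, and for *sv* and *peb* the next feature was at least 0.060 away. For *nvy* the margin was narrow, with its feature at 0.0024 and the next, that of *sca*, at 0.0064. For *vvl* it was narrower still, with its feature at 0.0045, just inside the rounding of 0.005, and the feature tied to *mira* at 0.0070, just outside. The feature taken for *vvl* also held the ratio of *mira*, so the pair was separated only because no other feature could be *vvl*, and the match of *vvl* is the least secure of the 5. RefSeq lists 7 transcripts for *sv*, 2 for *peb*, 1 for *sens*, 5 for *vvl* and 4 for *nvy* in the Release 6 assembly, and which of them each oligonucleotide reads is not given in the sources used here.

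The log2 ratio of *peb* was 3.94 for array 1 and 3.55 for array 2. It averaged 3.75 ± 0.28 (SD, n = 2 arrays), or 13.4-fold, the highest mean of all features. *sv* reached 4.34 on array 1, the highest value of that array, but 3 on array 2, and averaged 3.67 ± 0.95 (SD, n = 2), or 12.7-fold. The Pax2 homologue and the *hindsight* zinc finger gene thus stood close together at the top. The measurements of *sv* were 1.34 apart on the log2 scale, whereas those of *peb* differed by 0.39.

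The other 3 regulators formed a lower group. *nvy* measured 3.12 on array 1 but 1.76 on array 2, with a mean of 2.44 ± 0.96 (SD, n = 2), or 5.43-fold. *vvl* had 2.74 and 1.95, with a mean of 2.35 ± 0.56 (SD, n = 2), or 5.08-fold. *sens*, the factor most closely tied to the choice of the SOP itself, had 2.42 and 1.92, with a mean of 2.17 ± 0.35 (SD, n = 2), or 4.50-fold. It had the lowest mean of the 5 but, after *peb*, the smallest spread. By qRT-PCR, another measure, the paper reports a larger excess of *sens* in SOPs than this array ratio. The other regulators were not measured in that way there. For scale, 5% of all features had a mean log2 ratio above 0.47, and the median SD between the arrays was 0.15 over all features. All 5 regulators exceeded that median spread.

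**Figure D1:**
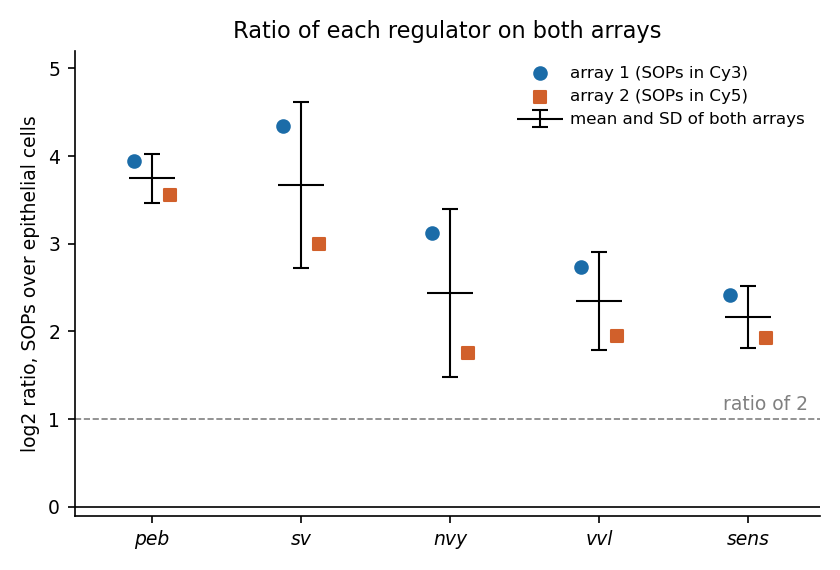
Log2 ratio of SOPs over epithelial cells for each regulator on array 1 (circles, SOPs in Cy3) and array 2 (squares, SOPs in Cy5), with the mean and SD of both arrays (n = 2). All 10 values lie above the dashed line at a ratio of 2, array 1 lies above array 2 for each gene, and the SDs of *sv* and *nvy* (0.95 and 0.96) are the widest.

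The order of the 5 was only partly fixed by these measurements. Of the 10 pairs of genes, 7 had the same order on both arrays, and in 6 of these the mean difference exceeded the SD of the difference. These 6 were the pairs of *peb* or *sv* with *nvy*, *vvl* or *sens*. The printed ratios that chose the features had already set *peb* and *sv* apart from these genes. The step is therefore no independent result. At the step between the groups, *sv* exceeded *nvy* by 1.22 on array 1 and by 1.24 on array 2, although the arrays differed by 1.34 for *sv* and 1.36 for *nvy*. Within the upper group the order turned: *peb* minus *sv* was -0.40 on array 1 and 0.55 on array 2, a mean of 0.08 ± 0.67 (SD, n = 2). Within the lower group *nvy* minus *vvl* was 0.38 and -0.19, and *nvy* minus *sens* was 0.70 and -0.16. *vvl* minus *sens* was 0.32 and 0.03, the same sign on both arrays but a mean of 0.18 that did not exceed its SD of 0.21. Neighbours within each group thus did not differ beyond their spread.

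All 5 regulators had a ratio of 2 or more on each array, against 0.445% of all features (70 of 15729). As the genes were taken from a list of ratios of at least 2, nothing is read from this count. At a ratio of 4 or more on each array, which 0.0509% of all features reached (8 of 15729), the 5 genes separated into *peb* and *sv*, which passed, and *vvl*, *sens* and *nvy*, which passed on array 1 and lay below a log2 ratio of 2 on array 2, at 1.95, 1.92 and 1.76.

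Among the 15729 features, *peb* ranked 1, *sv* 2, *nvy* 12, *vvl* 17 and *sens* 35 by the mean log2 ratio (1 is the highest, and ties share the better rank). The ranks differed strongly between the arrays. On array 1 they were 1 for *sv*, 2 for *peb*, 5 for *nvy*, 8 for *vvl* and 15 for *sens*. On array 2 they were 25 for *peb*, 26 for *sv*, 37 for *vvl*, 39 for *sens* and 43 for *nvy*. The 24 features above *peb* on array 2, at 3.61 to 4.34, all lay at a single position of a pattern that recurs along the table, and had only 0.61 to 0.84 on array 1. The table could be read as 24 blocks of 656 features, a length inferred from the ratios, and 13 positions of the block (312 features) had a median log2 ratio beyond 0.5 in size on at least 1 array. What these features are is not stated in the sources used here, and none of the 5 regulators lay at such a position.

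**Figure D2:**
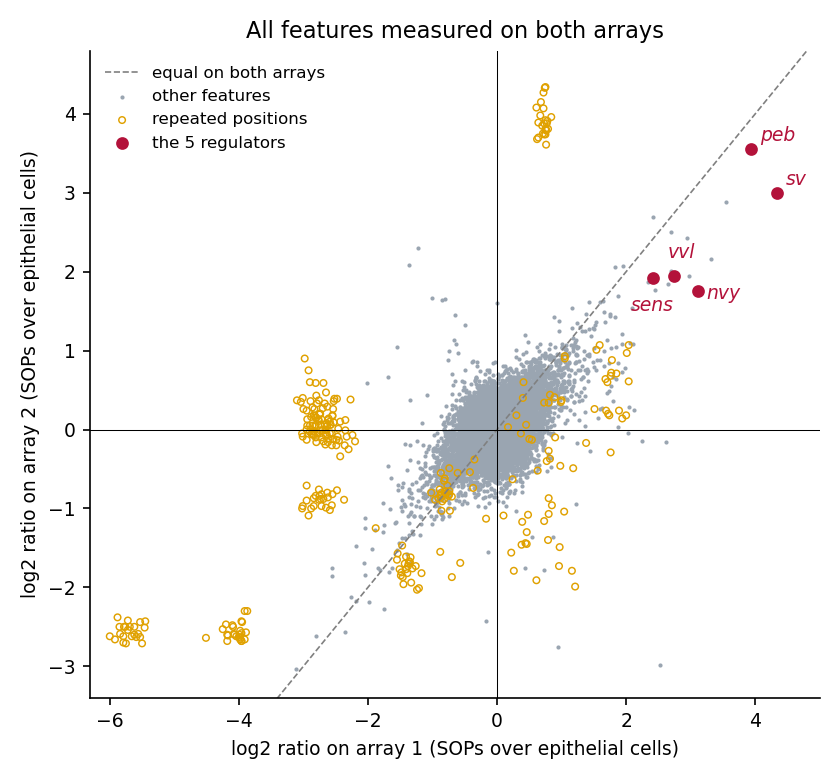
Log2 ratio (SOPs over epithelial cells) on array 2 against array 1 for the 15729 features, with the 5 regulators in red, the features at repeated positions as open circles and equality as a dashed line. The regulators lie at the upper right, below the line, while the cluster of open circles at the top had 0.61 to 0.84 on array 1 and 3.61 to 4.34 on array 2.

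Without the repeated positions, which left 15417 features, the ranks on both arrays came closer together. This follows in part by construction. The positions were chosen by the same ratios, and all features above *peb* on array 2 were left out with them. *sv* and *peb* then held ranks 1 and 2 on array 1, and *peb* and *sv* held ranks 1 and 2 on array 2. *sens* ranked 15 on each array. *vvl* ranked 8 on array 1 and 13 on array 2, and *nvy* ranked 5 and 19. By the mean log2 ratio the ranks became 1 for *peb*, 2 for *sv*, 9 for *nvy*, 11 for *vvl* and 13 for *sens*. When the ratios were averaged arithmetically instead, which gives more weight to the higher array, *sv* took rank 1 and *peb* rank 2. The ranks of *nvy*, *vvl* and *sens* were then 31, 34 and 37 among all features, and 7, 10 and 13 outside the repeated positions.

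**Figure D3:**
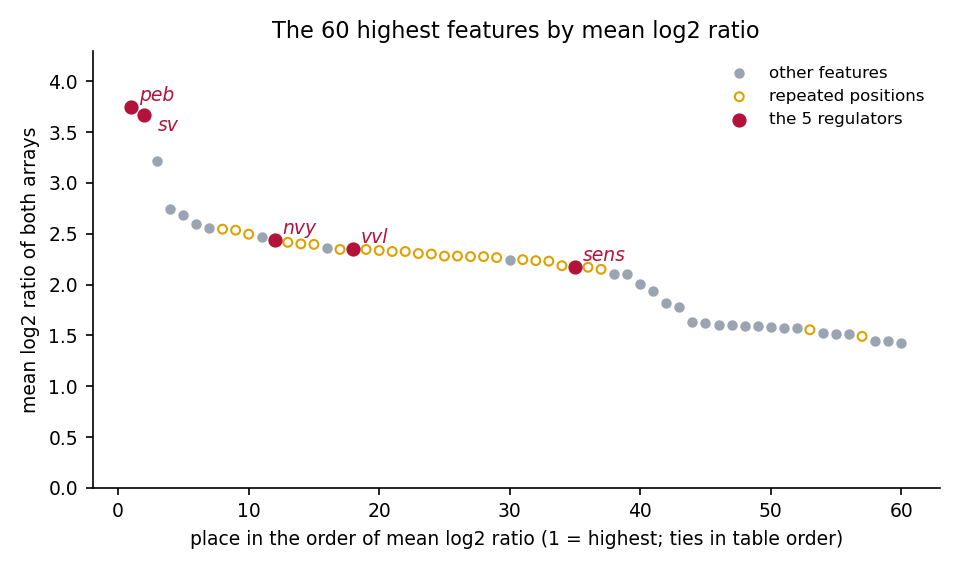
Mean log2 ratio of both arrays for the 60 highest features in descending order, with the regulators in red and features at repeated positions as open circles. *peb* and *sv* stand first and second, and of the 22 features between *nvy* (2.44) and *sens* (2.17) 19 are at repeated positions. Ties are drawn in table order.

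All 5 genes were higher on array 1, where SOPs carried Cy3, than on array 2. The difference, array 1 minus array 2, was 1.36 for *nvy*, 1.34 for *sv*, 0.79 for *vvl*, 0.50 for *sens* and 0.39 for *peb*. Divided by 2, it measures what the dye-swapped arrays do not share, and came to 0.68 for *nvy* and 0.67 for *sv*, beside means of 2.44 and 3.67. A value as high as that of *nvy* was found in 0.318% of all features, as high as that of *vvl* in 1.46% and as high as that of *peb* in 11.0%. Counted in either direction, values as large were found in 1.62%, 3.56% and 23.1% of all features. Over all features 47.5% were higher on array 1, but 54 of the 70 that reached a ratio of 2 on each array were, so in the values as deposited the direction was common among high features. With both arrays scaled to equal SD it was not: 34 of the 79 features that then reached a ratio of 2 on each array were higher on array 1. With equal interquartile range 49 of 75 such features were, and with each value centred on its block 59 of 67. Array 1 also had the wider distribution (SD 0.525, against 0.391 on array 2), but the interquartile ranges were closer (0.38 and 0.34). Both SDs include the features at repeated positions, and scaling without these features was not tried. With 1 array in each dye orientation, an effect of the dye and one of the array cannot be told apart.

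The direction of this difference depended on the scale of the arrays. When both arrays were scaled to equal SD, *peb* had 3.47 on array 1 and 4.20 on array 2, and *sens* had 2.13 and 2.27, so both were then higher on array 2. *sv* (3.83 and 3.55), *vvl* (2.42 and 2.31) and *nvy* (2.75 and 2.08) stayed higher on array 1. When the arrays were scaled to equal interquartile range, a choice made after seeing the data, *peb* alone turned, at 3.73 and 3.76. *nvy* had the largest excess on array 1 in each of these settings, and the means of the 5 genes moved by at most 0.09 on the log2 scale.

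**Figure D4:**
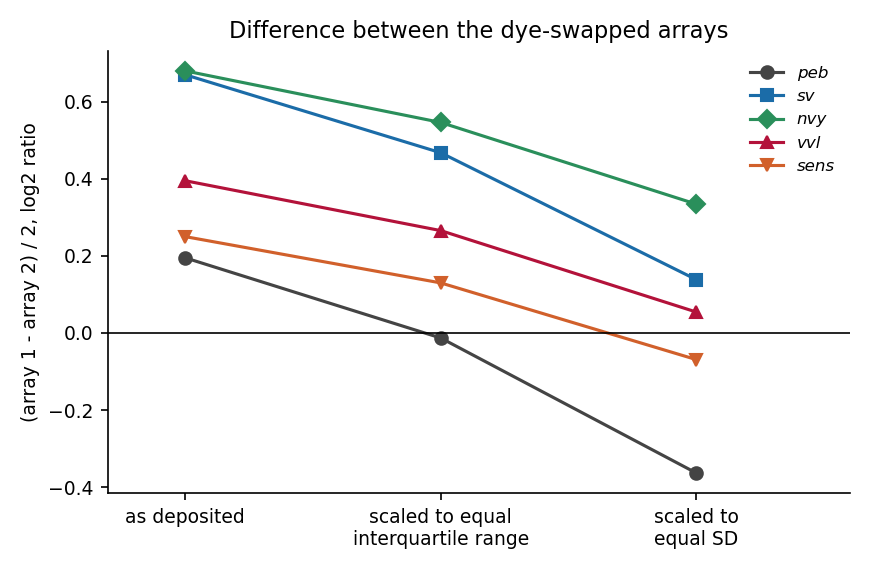
Array 1 minus array 2, divided by 2 (log2 ratio of SOPs over epithelial cells) for each regulator with the values as deposited, with arrays scaled to equal interquartile range and with arrays scaled to equal SD. All 5 genes lie above 0 as deposited (0.20 to 0.68), 4 with equal interquartile range and 3 (*nvy*, *sv* and *vvl*) with equal SD.

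High ratios were not shared by the features listed beside the 5 regulators. Of the 20 features that stand 1 or 2 rows before or after them, the values ran between -0.35 and 1.04 on either array. The highest belonged to feature 7877, 2 rows before *peb*, with 1.04 and 0.60. Within its own block of 656 features, each of *sv*, *peb* and *vvl* was the highest by the mean, and 1 feature exceeded *sens* and 1 exceeded *nvy*. The feature above *sens* (mean 2.335) lay at a repeated position. The block medians lay between -0.05 and 0.10, and centring each value on its block changed the means by at most 0.06.

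The 3 features with the most similar pair of values were then found for each regulator, by Euclidean distance over the log2 ratios of the 2 arrays, and their names rest on printed ratios as well. *sv* and *peb* were nearest to each other (distance 0.68), and the next feature to each was that tied to *CG2556* (3.55 on array 1 and 2.88 on array 2), at 0.80 from *sv* and 0.78 from *peb*. The *vvl* feature lay closest to that of *mira*, the adaptor that carries cell fate determinants in asymmetric division (2.70 and 2.01, distance 0.072), followed by *CG15281* (0.14). The nearest feature to *sens* was that tied to *CG4404* (2.34 and 1.87, distance 0.094), and the next was *CG12488* (0.15). *nvy* was nearest to *CG32392* (2.98 and 1.95, distance 0.24), with *vvl* second at 0.42. With 2 arrays this measure compares 2 numbers only.

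From a list of 58 transcription regulators of neural and epithelial fate, which holds the 5 genes, the annotation named no feature, so proneural genes such as *ac* and *sc* and the *E(spl)* genes were not analysed here. Beside the 5, 5 more of the list (*nmr2*, *lola*, *insv*, *edl* and *ct*) were linked to features by a printed ratio, each to several features at once, and *svp*, which has a printed ratio too, was not analysed here. For *nmr2*, a T-box gene, the 2 candidate features had 0.96 to 1.5 on array 1 and 0.79 to 1.38 on array 2. For *lola*, which encodes BTB zinc finger proteins of axon guidance, the 6 candidates had 1 to 1.29 and 0.76 to 1.09. The candidates of *insv* had means of 1.08 to 1.11, those of *edl*, which antagonises Ets factors, 1 to 1.05, and those of *ct*, a homeodomain gene of external sensory organs, 0.37 to 1.20. Whichever feature belongs to each gene, its mean was at most 1.20, below the 2.17 of *sens*. The order follows from the printed ratios by which all were found.

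The label of the SOP sample was checked against *neur*, whose driver marked the cells, with 1.46 on array 1 and 1.19 on array 2 (mean 1.33 ± 0.19, SD, n = 2). *sca*, which encodes a secreted protein of lateral inhibition, had 2.70 and 2.50. The 3 features that hold the ratio of *phyl*, an adaptor gene of SOP specification, had 1.64 to 2.04 on array 1 and 1.07 to 1.63 on array 2. All 3 genes were linked by ratios above 2 and are no independent check. Of the 6 SOP markers of the list, 5 were linked in this way, *sens* and *mira* among them. The other, *ac*, had no linked feature, and the paper reports a similar level of it in SOPs and epithelial cells. Markers of other cells were nearly unnamed: of 14 muscle genes only *up* (troponin T) had a feature, with 0.27 and -0.52, and of 5 epithelial genes only *p120ctn*, with 0.01 and -0.32. No haemocyte gene had one. Of 5 fat body genes, *Lsp1beta*, which encodes a larval serum protein, was linked by a printed ratio to 3 features, with 1.07 to 1.76 on array 1 and -0.29 to 1.07 on array 2. The gene is on the printed list of ratios of 2 or more in SOPs, as the 5 regulators are, and a part of fat body RNA in their ratios was not tested. *vvl* is itself also a tracheal gene, and as *trh* and *btl*, the other tracheal markers of the list, had no named feature, a part of trachea in the *vvl* ratio was not tested.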

How the data were processed

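The deposited table holds a log2 ratio with 2 decimals for each feature on each of 2 arrays. With limma, whose version is not given in the sources used here, the authors ran a lowess normalization within each array and no background correction, and removed flagged spots and controls from their analysis. Scale and direction of the values were taken from the match of the 5 features to the printed ratios and from the correlation of the arrays over features (Pearson's r = 0.54, Spearman's rho = 0.35), positive in spite of the swapped dyes. Centring beyond lowess is unknown, and the medians were -0.01 and 0. Intensities were not used here, so the signal behind each ratio is unknown, and precision is limited by the number of arrays.

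Features without a value on array 1 (8) or array 2 (7) were left out. The mean, SD and ranks of the log2 ratios were computed in Python 3.11.15 with pandas 2.3.3 and numpy 2.4.6, and the matching, ranking and block search were checked on simulated tables. Whether each array had its own RNA extract is not stated, so the SD may be technical. No p-value was computed, because the measured ratios had chosen the features.

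Members and gene lists were chosen with earlier results of these data known. Printed ratios of 22 genes were used to name features. Genes named are the 5 members, the 3 features nearest to each, and members of the fixed lists that were linked to a feature, without *svp*, whose printed ratio was not used. Alternatives were the arithmetic mean, centred or scaled arrays, centred blocks, each array alone, other ratio thresholds, features with a value on at least one array, and leaving out the repeated positions.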

Additional observations from a re-analysis of the deposited data

How the results depend on the processing

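The mean log2 ratio of each of the 5 genes stayed above 0 in all 35 alternatives (7 for each gene). As the features were chosen by their high ratios, this outcome was fixed by the choice and nothing is read from it. With 2 arrays, a single array lies within 1 SD of the mean by construction, so those alternatives say nothing about stability. The ranks of *nvy*, *vvl* and *sens*, 12, 17 and 35, became 31, 34 and 37 with the arithmetic mean and 33, 35 and 37 with arrays scaled to equal SD. *peb* and *sv* filled ranks 1 and 2 in both settings, with *sv* first by the arithmetic mean. With array 1 or array 2 alone the rank ran between 1 and 26 for *sv*, 2 and 25 for *peb*, 5 and 43 for *nvy*, 8 and 37 for *vvl*, and 15 and 39 for *sens*. Without the repeated positions *sens* ranked 13 in place of 35, since the features left out had stood above it. At a ratio of 4 on each array, 2 of the 5 genes passed. All features with a ratio of 2 or more on each array numbered 70, against 338 at a ratio of 1.5, 20 at 3 and 8 at 4, and 117 to 223 with a single array. No paired analysis was possible because the arrays form a single group and no test was made. With 2 arrays and no intensities, the precision of any one ratio cannot be given.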
